A study of Mus musculus with 2 samples.

Results

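Oligodendrocyte precursor cells (OPCs) of the mouse hippocampus were picked out of a single-cell RNA table by a rule on 7 marker genes, and their transcriptomes were described in wild-type mice and in mice homozygous for an edited allele of Pigv. A cell was taken as a member when at least 4 of Pdgfra, Cspg4, Vcan, Lhfpl3, Cacng4, Megf11 and Tnr had a value of 2 or more, Pdgfra or Cspg4 among them, and when the values of Gad1 and Gad2, which mark inhibitory neurons, summed to at most 2. The rule found 453 members among 15930 cells, 182 of 7094 cells in the wild-type library and 271 of 8836 cells in the knock-in library.

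OPCs are dividing glial cells that persist in the adult brain and give rise to the oligodendrocytes that wrap axons in myelin. They respond to platelet-derived growth factor through the receptor encoded by Pdgfra, carry the proteoglycan NG2 encoded by Cspg4, and rely on the transcription factors Olig2, Sox10 and Nkx2-2. On leaving the precursor state they lose Pdgfra and Cspg4, pass through a stage marked by Gpr17, Bcas1 and Enpp6, and then turn on myelin genes such as Mbp, Mag and Mog. In the hippocampus they lie among neurons, receive synapses from them and express many receptors and channels for neurotransmitters.

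The mice were of strain C57Bl.6/J, either wild-type controls or homozygous for the CRISPR-Cas9-engineered knock-in allele Pigv341E. Pigv encodes a mannosyltransferase that helps build the glycosylphosphatidylinositol (GPI) anchor, a lipid that holds many proteins at the outer face of the cell, and the title of the study names Eph and Abl1 signalling. Cells from the 8 hippocampi of 4 mice per genotype were dissociated mechanically in the cold, pooled by genotype and turned into 1 droplet library each, and the libraries shared a sequencing lane. Age is not given in the labels. With 1 library of pooled mice per genotype there was no replicate and no test, so every difference between genotypes below is a difference between 2 libraries, and genotype and library cannot be told apart.

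The deposited values were whole numbers that, by the name the authors gave the table and the narrow spread of their sums per cell, had been corrected for depth, so they were not treated as raw counts. The depth of sequencing behind a value is therefore unknown, and a 1 in the table may not stand for an observed molecule. Where a pair of values is given without further words, the first is that of the wild-type and the second that of the knock-in library. The summed value of a member had a median of 8238 and 8304, and 2451.5 and 2747 genes were above 0. Random thinning of every cell to a sum of 1000 brought these gene medians to 676 and 690. The libraries shared 28 cell barcodes, none of them in a member. In what follows, the level of a gene is its summed value over the cells of a group per 10000 of their summed values. A log2 ratio compares knock-in with wild-type levels with 0.1 added to each, which understates the ratio of low genes. Intervals of shares are exact 95% Clopper-Pearson intervals and cover counting error only.

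The 7 rule markers defined the members, so their values are a description. Lhfpl3, which encodes a tetraspan membrane protein, had a median value of 49.5 per wild-type member (range 8 to 146) and 50 per knock-in member (7 to 112), and it was at 2 or more in every member. Pdgfra had a median value of 4 in wild-type (0 to 15) and 5 in knock-in members (0 to 19) and reached 2 in 87.9% and 86.7% of them. Cspg4 had a median value of 3 in both libraries and reached 2 in 76.4% and 73.4% of members. The values of the libraries overlapped almost fully for these genes, and many members passed the rule with only one of Pdgfra and Cspg4 at 2.

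As levels, Pdgfra was at 6.11 and 6.58 per 10000 in members, against 0.0499 and 0.0807 in all other cells. Cacng4, whose product is an auxiliary subunit of AMPA receptors, was at 7.25 and 7.81 in members and at 0.0873 and 0.117 elsewhere. Vcan, which encodes the matrix proteoglycan versican, was at 6.14 and 7.49, and Megf11, an EGF-repeat membrane protein, at 8.79 and 8.93. These genes had low levels outside the members. Tnr, which encodes the matrix glycoprotein tenascin-R, was at 46.9 and 47.1 in members and still at 4.47 and 4.57 elsewhere, and it reached 2 in 58.6% of other wild-type cells and 57.6% of other knock-in cells. Tnr was thus the least selective of the 7 markers.

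Pdgfra and Vcan are rule markers, so their height in members was set by the rule. As both bear on OPC identity, the 250 bases before their RefSeq start are shown, 5′ to 3′ on the gene's strand (GRCm38.p6). Capitals mark E-boxes, the motif CANNTG on either strand that basic helix-loop-helix factors such as Olig2 recognise. The Pdgfra window is chr5:75152001-75152250 on the plus strand and that of Vcan is chr13:89742513-89742762 on the minus strand.
Pdgfra: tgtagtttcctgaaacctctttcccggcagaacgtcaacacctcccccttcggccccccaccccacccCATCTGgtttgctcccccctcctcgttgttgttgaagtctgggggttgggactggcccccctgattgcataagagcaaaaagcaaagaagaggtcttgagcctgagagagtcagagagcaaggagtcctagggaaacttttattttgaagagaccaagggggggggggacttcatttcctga
Vcan: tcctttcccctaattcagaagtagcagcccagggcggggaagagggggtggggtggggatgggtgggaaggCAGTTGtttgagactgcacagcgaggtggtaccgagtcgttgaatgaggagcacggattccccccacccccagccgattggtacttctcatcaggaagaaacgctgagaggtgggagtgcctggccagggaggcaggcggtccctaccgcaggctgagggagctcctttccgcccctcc
Each window holds 1 E-box, and neither holds ACAAAG or ACAATG, core motifs of SOX factors, on either strand. Among the 25 genes with the highest ratio of members over other cells, 17 had such a window, and 10 of the 17 (58.8%) held an E-box and 4 (23.5%) a SOX motif. Over all 17048 table genes with a window, 62.1% held an E-box and 21.3% a SOX motif, so these letters were about as common near the OPC genes as elsewhere.

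**Figure D1:**
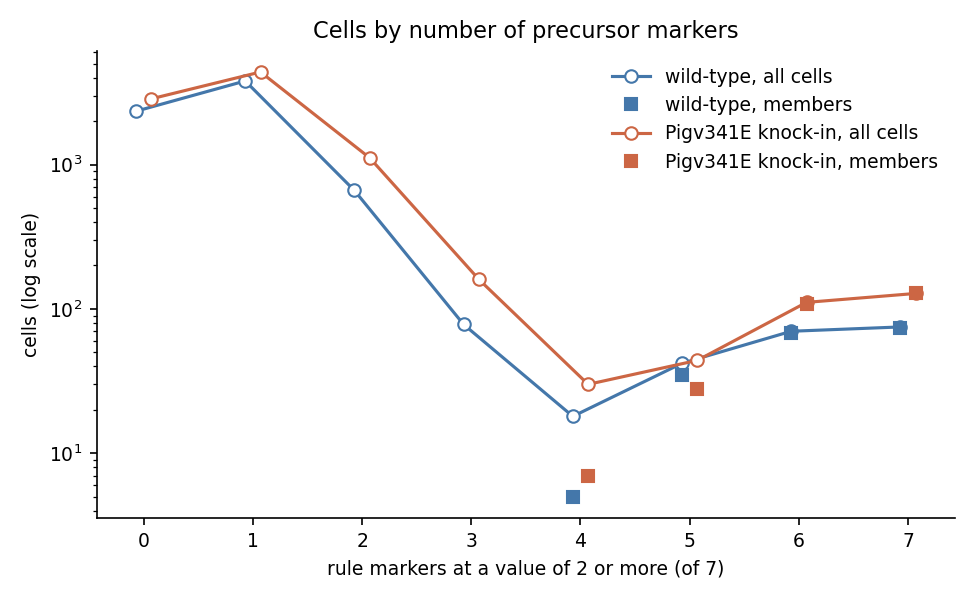
Number of cells (y axis, log scale) by how many of the 7 rule markers were at a value of 2 or more (x axis). Open circles joined by lines are all cells of a library, filled squares the members. Cell numbers fall to 18 wild-type and 30 knock-in cells at 4 markers and then rise to 75 and 128 at all 7.

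Most members sat well inside the rule. All 7 markers were at 2 or more in 74 wild-type and 128 knock-in members, and 6 markers in 68 and 108, whereas only 5 and 7 members had the minimum of 4, as the plot of cells by number of markers shows. Just inside the threshold, the 12 members with 4 markers had Sox10 at 2.18 per 10000 and Lhfpl3 at 45.4. Just outside it, the 25 cells with 3 markers including Pdgfra or Cspg4 had Sox10 at 0.659 and Lhfpl3 at 6.49. Lhfpl3 is itself a counted marker, so its difference was set in part by the rule, which did not use Sox10. A further 7 cells met the marker part of the rule but were left out for Gad1 and Gad2.

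A group of 58 cells, 20 wild-type and 38 knock-in, had 4 or more markers but neither Pdgfra nor Cspg4 at 2. Sox10, which the rule did not use, was at 3.12 and 2.27 per 10000 there, against 2.92 and 2.90 in members. Not all cells just outside the rule were thus low in Sox10. The summed levels of the group differed from those of members in some genes of commitment. Bcas1, an early gene of myelinating cells, was at 11.2 and 9.97 per 10000 there, against 3.23 and 3.65 in members. Yet it reached 2 in 58.6% of these cells, against 59.9% of members with 7 markers and 64.2% of those with 6. Fyn, a kinase of the Src family active in maturing oligodendrocytes, was at 16.9 and 13.9 against 4.54 and 4.11. Enpp6, a choline phosphodiesterase used to mark newly formed oligodendrocytes, was at 1.5 and 1.47 against 0.0198 and 0.0430. Not all commitment genes differed this much. Neu4 was at 0.780 and 0.948 against 0.561 and 0.719. Itpr2 was at 7.38 and 4.34 against 4.79 and 4.48, so its direction differed between the libraries. By the marker rules for other classes given below, 8 of the 58 cells were newly formed oligodendrocytes, 16 were neurons and 24 belonged to no class.

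OPC genes that the rule did not use were described as well. Of 30 such genes in the table, 29 had a level in members of at least 0.2 per 10000, as the mean of the libraries. This minimum was used for all gene lists. It was set on members alone, so genes low in members fell out of the list counts and of the share over all genes. Of the 29, 25 were at least 2-fold higher in members than in all other cells of both libraries. Over all 6217 genes at that level, 402 (6.47%) were at least 2-fold higher in both libraries. A further comparison took the 2181 genes of at least 1 per 10000 in both libraries, in members or in other cells. Of these, 274 (12.6%) were at least 2-fold higher in both libraries, 286 (13.1%) at least 2-fold lower and 38 (1.74%) at least 8-fold higher. Since the members were chosen by genes of the same cells, these counts describe them and support nothing further.

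Among the transcription factors, Sox10, which is required throughout the oligodendrocyte lineage, was at 2.92 and 2.90 per 10000 in members and reached 2 in 54.9% and 61.3% of them. Olig1 was at 0.766 and 0.899, Olig2 at 0.528 and 0.822, and Nkx2-2 at 0.343 and 0.430. Olig2 reached a value of 2 in 7.14% of wild-type and 16.2% of knock-in members, but after thinning it was above 0 in 8.79% and 7.01%, the opposite order, so no direction was read. Sox6, which holds precursors in the immature state, was at 14.5 and 15.7 and reached 2 in 97.3% and 99.6% of members. Myt1, a zinc finger factor of progenitors, was at 4.94 and 6.37. The low levels of Olig1, Olig2 and Nkx2-2 left many members without a value above 0 for them, so they could not serve as per-cell markers here.

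To place the OPCs among their neighbours, other cells were given reference classes. At least 4 markers of a class had to be at 2 or more, a defining gene such as Mog or Mag among them. Newly formed oligodendrocytes were taken before mature ones. Cells that met more than 1 other class rule, 439 and 467, were left out, whereas members with markers of another class were kept. These rules gave 58 newly formed oligodendrocytes, 2539 mature oligodendrocytes, 1073 astrocytes, 1224 microglia and 7974 neurons, names that rest on markers alone. Of 1731 genes with a level of at least 1 per 10000 in members of both libraries, 83 (4.79%) were at least 2-fold and 28 (1.62%) at least 4-fold higher in members than in each of these 5 classes in both libraries. At least 4-fold higher levels were seen for 137 genes (7.91%) against newly formed oligodendrocytes, 163 (9.42%) against neurons, 211 (12.2%) against astrocytes, 263 (15.2%) against mature oligodendrocytes and 337 (19.5%) against microglia.

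Rule markers made up 5 of the 28 genes, with Vcan and Tnr falling outside. The others included Nxph1, a secreted ligand of neurexins (25.5 and 22.8 per 10000), and Pcdh15, a protocadherin (34.6 and 36.9). They also included Xylt1, the enzyme that starts glycosaminoglycan chains (33.6 and 31.3), and Chst11, a chondroitin sulfotransferase (16.9 and 14.4). Kcnh8, a voltage-gated potassium channel (3.28 and 2.86), Ntn1, the guidance cue netrin (2.07 and 2.47), Shc4, an adaptor of receptor tyrosine kinases (2.77 and 2.68), Matn4, a matrilin of the matrix (2.81 and 3.69), and C1ql1, a secreted C1q-family protein (1.06 and 1.01), were in the set too. Their levels in the libraries lay close together, Matn4 having the largest ratio of those named, 0.38 on the log2 scale.

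**Figure D2:**
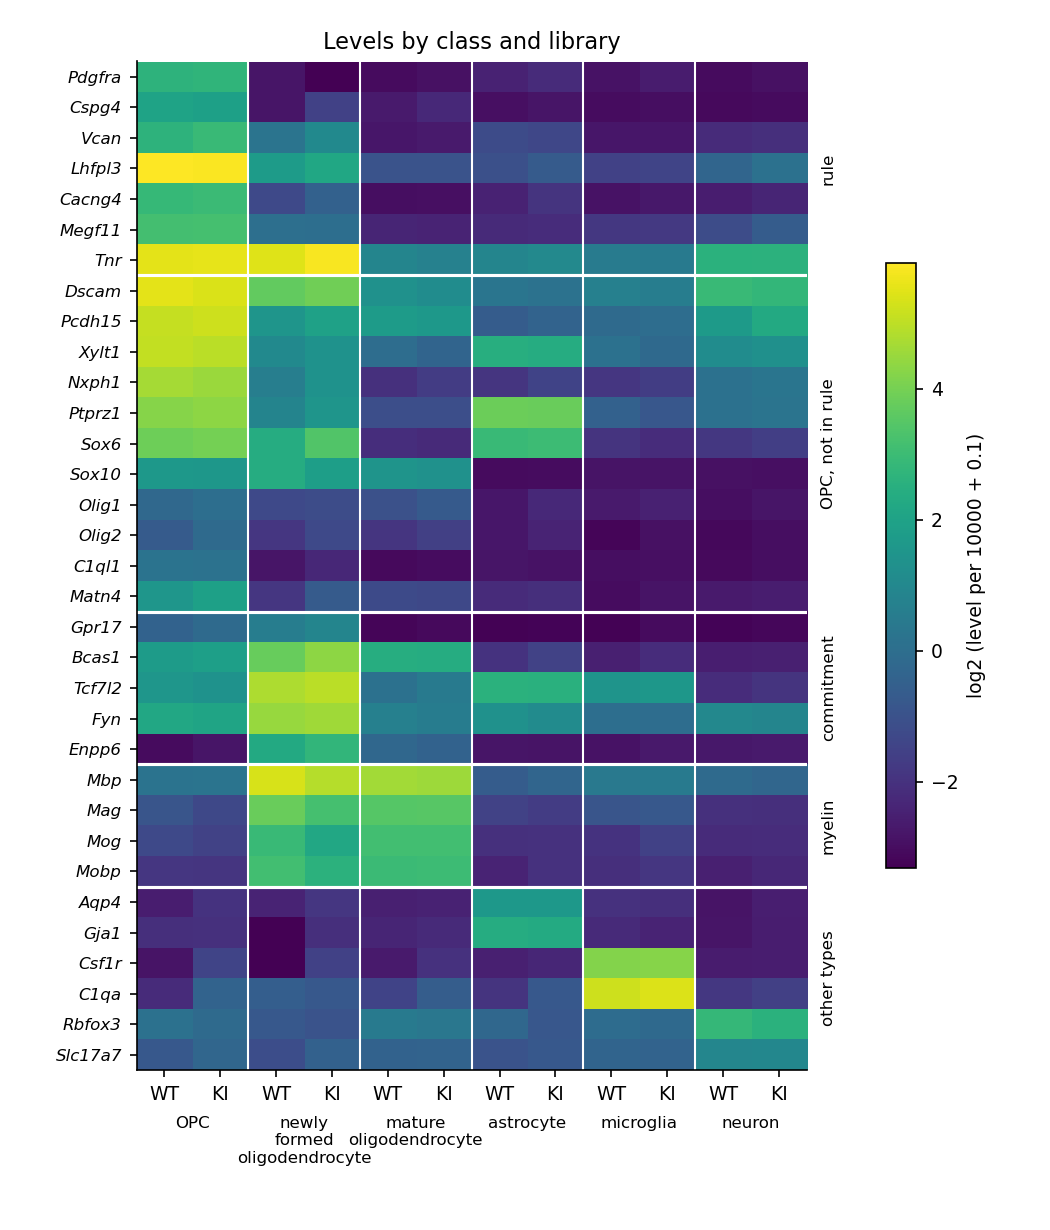
Levels of selected genes (rows, log2 of the level per 10000 plus 0.1, colour scale) in members and 5 reference classes (columns, wild-type left and knock-in right of each pair). Pdgfra, Cspg4 and Cacng4 are bright in members alone, while Sox10 is shared with oligodendrocytes and Ptprz1 and Sox6 with astrocytes.

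Several OPC genes were shared with one neighbour, as the heat map of levels by class shows. Sox10 was at 5.15 and 3.48 per 10000 in newly formed and at 2.68 and 2.46 in mature oligodendrocytes of the wild-type and knock-in library. Ptprz1, a receptor phosphatase and proteoglycan, was at 18.9 and 20.3 in members and at 14.2 and 14.1 in astrocytes. Sox6 was at 7.64 and 7.96 in astrocytes. Tnr was at 44.0 and 56.7 in newly formed oligodendrocytes, as high as in members. Sox10 was thus shared with both oligodendrocyte classes, Tnr with the newly formed class, and Ptprz1 and Sox6 with astrocytes. Tnr also reached 2 in 58.6% and 57.6% of all other cells, so it was not particular to the lineage.

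Among receptors of growth and fate signals, Erbb4, a neuregulin receptor, was at 22.9 and 23.8 per 10000 in members, against 5.79 and 6.33 in other cells. Ednrb, an endothelin receptor, was at 1.39 and 1.58, and Gpr37l1, an orphan receptor of glia, at 1.62 and 2.10. Fgfr2 was lower in members than in other cells, at 13.5 and 12.5 against 18.7 and 16.4. Igf1r, the receptor of insulin-like growth factor, was at 4.36 and 3.02, a log2 ratio of -0.52 that did not reach the size used below. Of the 21 receptor genes at list level, 9 were at least 2-fold above other cells in both libraries, the rule marker Pdgfra among them, and 2 at least 2-fold below. Over all 6217 genes at list level, 402 (6.47%) were at least 2-fold above and 360 (5.79%) at least 2-fold below.

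Among channels and transmitter receptors, 48 genes were at list level in the OPCs. Of these, 7 were at least 2-fold above other cells in both libraries, and 9 were at least 2-fold below. The shares over all genes at list level were 6.47% and 5.79%. Without the rule marker Cacng4 the share of higher genes was 6 of 47 (12.8%). Against the neuron class, 6 of the 48 were at least 2-fold higher in members of both libraries. The share over all genes was not computed for that comparison, so nothing is read from this count. Grin3a, an NMDA receptor subunit, was at 5.20 and 5.45 per 10000 in members against 0.628 and 0.779 in other cells. Gria4, an AMPA receptor subunit, was at 7.90 and 8.26 against 3.03 and 3.70, and Kcnd2, which carries A-type potassium current, at 41.1 and 36.3 against 17.8 and 14.9. Kcnip4, a partner of such channels, was at 11.1 and 12.2 against 59.3 and 50.4. Gria2 and Grik2 differed little from other cells.

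Of 25 proteoglycan and matrix genes at list level, 15 were at least 2-fold above other cells in both libraries. The rule markers Vcan, Cspg4 and Tnr were among them, and without these the count was 12 of 22 (54.5%). Of 49 adhesion and synapse organiser genes, which include no rule marker, 21 (42.9%) were at least 2-fold above other cells. For both lists, the share over all genes at list level was 6.47%. Cspg5, a neuronal and glial proteoglycan, was at 6.88 and 7.67 per 10000 in members, and Bcan, which encodes brevican, at 3.76 and 4.42. Dscam, a homophilic adhesion protein, was at 46.8 and 42.2 against 5.5 and 5.0 in other cells, and Lrrc4c, a netrin-G ligand, at 71.7 and 70.9 against 11.69 and 11.75.

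The position of the members along the lineage was read from genes of commitment and myelin. Bcas1 was at 3.23 and 3.65 per 10000 in members, 13.6 and 20.3 in newly formed and 5.25 and 5.23 in mature oligodendrocytes. Tcf7l2, a Wnt effector that is high at the onset of differentiation, was at 2.80 and 2.53 in members and 27.1 and 30.7 in newly formed oligodendrocytes. Both genes are among the 7 markers that picked the newly formed class, so their height there was set by that choice. Of the 14 commitment genes at list level, 7 were at least 2-fold above other cells in both libraries and 2 at least 2-fold below. Over all genes at list level, 6.47% were above and 5.79% below by that limit. Itpr2, an intracellular calcium channel, was among the higher, at 4.79 and 4.48 against 0.653 and 0.725 in other cells. Gpr17 was above 0 in 34.1% and 42.1% of members, Neu4, a sialidase, in 29.1% and 40.2%, Bmp4 in 4.40% and 5.54% and Enpp6 in 1.65% and 2.95%. The commitment genes thus differed among themselves, and these 4 were at 0 in most of them.

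Mbp, which encodes myelin basic protein and was not used to pick the mature class, was at 1.05 and 1.06 per 10000 in members against 24.6 and 23.8 in mature oligodendrocytes. Mog, one of the markers that picked that class, was at 0.310 and 0.254 in members. None of the 11 myelin genes at list level was 2-fold above other cells.

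At least 3 of the 7 commitment genes Gpr17, Enpp6, Bmp4, Neu4, Bcas1, Tcf7l2 and Itpr2 were at 2 or more in 59 of 182 wild-type members (32.4%, 25.7 to 39.7%) and 94 of 271 knock-in members (34.7%, 29.0 to 40.7%). The intervals overlapped. This is a range and not a cell type, since 77 and 105 members had 2 such genes, just below the limit.

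Gpr17, the receptor that marks precursors on the way to differentiation, was at 0.640 and 0.805 per 10000 in members against 0.0146 and 0.0258 in other cells. It reached 2 in 17 wild-type members (9.34%, 5.54 to 14.5%) and 43 knock-in members (15.9%, 11.7 to 20.8%). After thinning it was above 0 in 7.69% and 5.54% of members, the opposite order, so no difference between the libraries was read from it. The split of members by Gpr17 was chosen after values had been seen.

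Members with Gpr17 at 2 or more differed from those with Gpr17 at 0 in few genes. Of 1805 genes compared, 2 (0.111%) were at least 2-fold higher in both libraries, Gpr17 itself among them by construction, and 1 (0.0554%) at least 2-fold lower. The other higher gene was Bcas1os2, a transcript opposite Bcas1, at 1.27 and 1.25 per 10000 in members with Gpr17 against 0.525 and 0.537 without. Bcas1 was at 5.24 and 6.05 against 2.80 and 3.09, and Vcan at 8.92 and 9.15 against 5.58 and 6.83. The lower gene was Iqgap2, a scaffold of the cytoskeleton, at 0.708 and 0.763 against 1.72 and 1.83. Pdgfra differed less, at 5.24 and 6.54 against 6.21 and 6.63.

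Few members carried transcripts of the cell cycle. At least 4 cycle genes above 0, with Mki67 or Top2a at 2 or more, were found in 3 wild-type members (1.65%, 0.341 to 4.74%) and 5 knock-in members (1.85%, 0.602 to 4.25%). The cells stood apart clearly in most cases, since 3 wild-type members had 17, 21 and 23 cycle genes above 0 and 3 knock-in members had 22, 23 and 23, while no other member had more than 9. Top2a, the topoisomerase of dividing cells, was at 12.5 and 12.4 per 10000 in cycling members and 0.0134 and 0.0132 in the rest. Since Top2a helped to pick the cycling members, this difference was set by that choice. Pdgfra was at 9.87 and 8.38 in the cycling members and 6.04 and 6.55 in the rest. Lsamp, which encodes a GPI-anchored adhesion protein, was at 77.8 and 96.4 in the cycling members against 144 and 131. With 3 and 5 cells these levels rest on very few cells.

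The share of OPCs was 2.57% among wild-type cells (2.21 to 2.96%) and 3.07% among knock-in cells (2.72 to 3.45%). The difference was 0.501 percentage points, close to the 0.524 points that counting error allows, and the intervals overlapped. Which side of that limit it fell on depended on the rule. It was beyond the limit under 4 of 8 other settings, at 0.606 against 0.536 points with at least 3 markers, 0.837 against 0.572 with markers at 1 or more, 0.543 against 0.495 with markers at 3 or more and 0.578 against 0.533 after thinning to 4000. Some members carried markers of other cells as well. At least 4 markers of another class were at 2 or more in 36 wild-type members (19.8%) and 82 knock-in members (30.3%). Without these members the shares were 2.06% (146 cells) and 2.14% (189 cells), a difference of 0.0809 points.

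Neuron markers were the most frequent of these in the knock-in library, and in the wild-type library they were about as frequent as astrocyte markers. At least 4 of 7 neuron markers were at 2 or more in 14 wild-type (7.69%) and 47 knock-in members (17.3%), while the summed neuron level of all members was 10.7 and 11.7 per 10000. Astrocyte markers reached that number in 13 and 14 members, newly formed oligodendrocyte markers in 5 and 15, microglial markers in 1 and 8, mature oligodendrocyte markers in 3 and 2, and endothelial and mural markers in 0 of either. Rbfox3, a defining neuronal gene, was at 1.00 and 0.805 per 10000, the opposite order to the summed neuron level. The pericyte gene Rgs5 was at 0 in wild-type members, and the summed endothelial and mural level was 0.106 and 0.383. The part of doublets and free RNA in these values was not tested.

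The comparison of genotypes asked which OPC transcripts differed between the libraries. A gene entered it when its level was at least 1 per 10000 in 1 library with at least 10% of that library's members above 0, and it passed the size rule when its log2 ratio was 1 or more in absolute size. Of 1987 such genes, 7 (0.352%) were higher and 1 (0.0503%) was lower in the knock-in members, 8 (0.403%) in either direction. The median log2 ratio was -0.07 and the 5th and 95th percentiles were -0.38 and 0.32, so the OPC transcriptomes of the libraries were close, as the scatter of gene levels shows. A ratio within 0.5 of 0 was found for 1927 genes (97%).

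**Figure D3:**
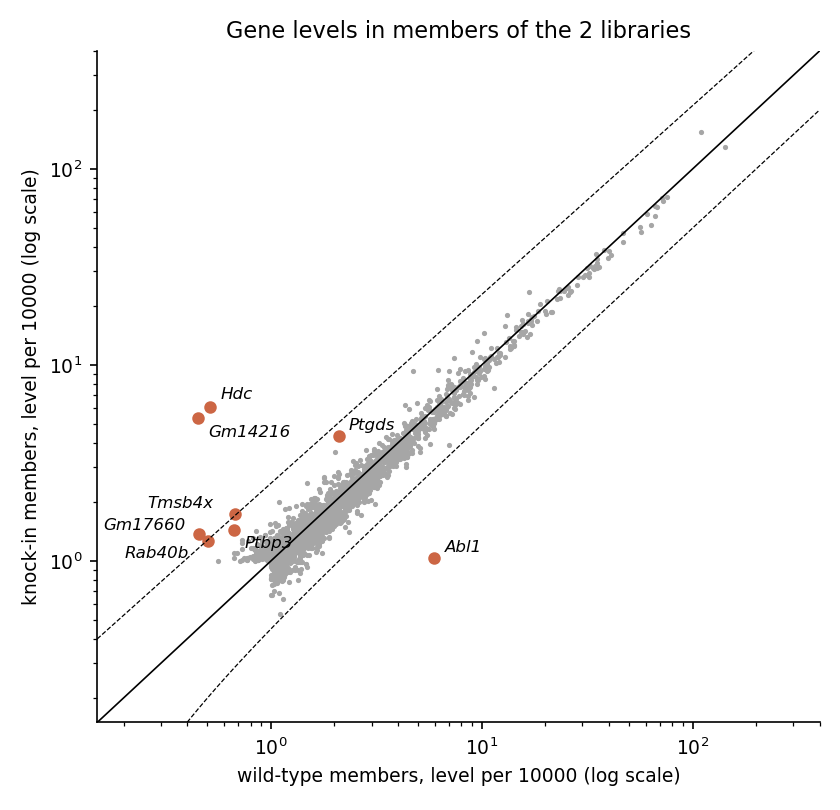
Levels of 1987 genes in wild-type (x axis) and knock-in members (y axis), per 10000, both axes on a log scale. The solid line marks equal levels, the dashed lines the 2-fold limits after 0.1 was added, and the 8 labelled genes lie on or beyond those limits, Hdc, Gm14216 and Abl1 farthest out.

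The edited gene itself was scarce. Pigv, on the minus strand of chromosome 4 from 133660387 to 133672647 in GRCm38, was at 0.0660 and 0.0775 per 10000 in members and was above 0 in 5.49% and 6.27% of them. Its log2 ratio was 0.10, and the level of the transcript is no check of the edit.

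Abl1 was the only gene lower past the size rule. It encodes a cytoplasmic tyrosine kinase that relays signals to the actin cytoskeleton and lies on chromosome 2, 31688376 to 31804227, plus strand. Its level in members was 5.95 and 1.04 per 10000, a log2 ratio of -2.41. A value of 2 or more was found in 155 of 182 wild-type members (85.2%) and in 65 of 271 knock-in members (24.0%), and a value of 0 in 5 and 158. The distributions of single cells overlapped at values of 0 to 6.

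Hdc and Gm14216 differed most in the other direction. Hdc, which encodes the enzyme that makes histamine (minus strand of chromosome 2, 126593667 to 126619299), was at 0.515 and 6.08 per 10000 in members, a log2 ratio of 3.33, and reached 2 in 3 and 248 of them. Gm14216, a long noncoding RNA (minus strand of chromosome 2, 154722352 to 154738451), was at 0.449 and 5.34, a log2 ratio of 3.31, and reached 2 in 0 wild-type members and 238 knock-in members. Nearly all wild-type members had values of 0 or 1 for both genes, and a 1 in the table can differ from an observed molecule.

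**Figure D4:**
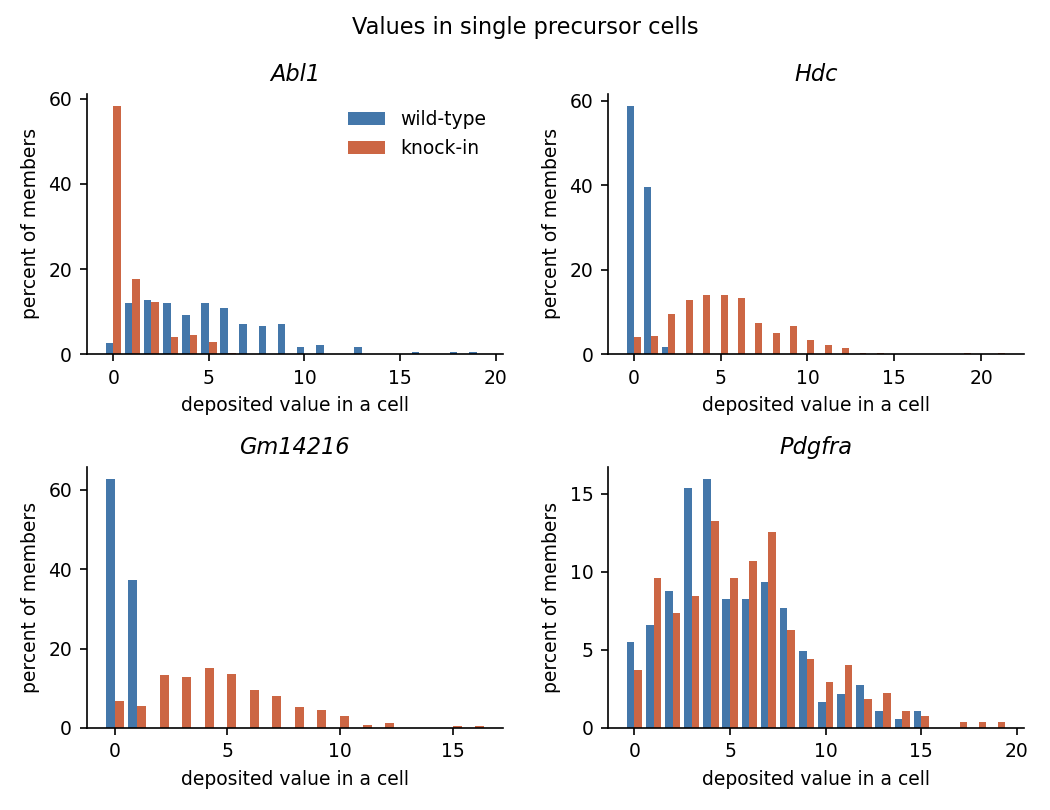
Percent of members (y axis) with each deposited value (x axis) of Abl1, Hdc, Gm14216 and, for comparison, Pdgfra, in the wild-type (blue) and knock-in library (orange). Hdc is at 2 or more in 1.65% of wild-type and 91.5% of knock-in members, while the Pdgfra values of the libraries cover the same range up to 15.

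The remaining 5 genes had smaller ratios. Gm17660, a predicted protein-coding gene, was at 0.456 and 1.37 per 10000 in members (log2 ratio 1.41). Tmsb4x, which encodes the actin-binding peptide thymosin beta 4, was at 0.673 and 1.74 (1.25), and Rab40b, a small GTPase, at 0.502 and 1.26 (1.18). Ptgds, a prostaglandin D synthase made by oligodendrocytes and meningeal cells, was at 2.09 and 4.32 (1.01), and Ptbp3, an RNA-binding protein, at 0.667 and 1.45 (1.01). Ptbp3 and Ptgds lay at the limit. Just inside it on the other side were Cst3, which encodes cystatin C (4.71 and 9.30, log2 ratio 0.97), and St18, a zinc finger factor (1.11 and 0.534, -0.93).

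The genes with the largest ratios differed in other classes as well. Abl1, Hdc, Gm14216 and Gm17660 passed the size rule in the same direction in the mature oligodendrocytes, astrocytes, microglia and neurons, the 4 reference classes that held 50 or more cells per library. Abl1 was at 13.7 and 2.88 per 10000 in mature oligodendrocytes, at 16 and 1.36 in astrocytes and at 6.99 and 0.615 in neurons. Hdc was at 1.04 and 11.9, 0.502 and 16.4, and 0.109 and 7.15 in these classes. Ptgds passed in astrocytes, microglia and neurons, Ptbp3 in astrocytes and Rab40b in neurons. Tmsb4x passed in no other class, and 0 genes passed in the opposite direction. Under the 12 other settings tried, Abl1, Hdc and Gm14216 always passed the size rule, while the other 5 genes each missed it at least once.

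Tmsb4x and Cst3 are abundant in microglia, where Tmsb4x was at 37.9 and 41.3 per 10000 and Cst3 at 205 and 227. The summed level of 8 microglial markers in members was 0.706 and 2.75 per 10000, 0.462% and 1.67% of the level in microglia. None of the 8 markers was at 0 in either library. The C1q gene C1qa was at 0.119 and 0.676. In knock-in members, 15 cells with 2 or more microglial markers held 67.3% of the summed value of these markers, and 2 wild-type members held 14.0%. Among members with 0 or 1 microglial marker, Cst3 was at 4.25 and 5.42 per 10000 and Tmsb4x at 0.667 and 1.30. In these members Tmsb4x fell short of the size rule. Over all members, single knock-in cells had Tmsb4x values of 36 and 41, while the highest wild-type value was 8. The part of microglial RNA in the higher Tmsb4x was not tested beyond these values.

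The GPI-anchored proteins were examined because their anchor depends on Pigv. Of 59 such genes in the table, 27 were at list level and 17 had the level needed for the size rule, of which 0 passed in either direction. Their median log2 ratio was 0.04, against 0.01 for all 6217 genes at that level, so the list stood close to all genes. Of the 27, 11 (40.7%) were at least 2-fold above other cells in both libraries and 5 at least 2-fold below. Over all genes at list level the shares were 6.47% above and 5.79% below. Lsamp was at 143 and 130 per 10000 in members, Opcml, a related adhesion protein of the IgLON family, at 63.5 and 51.7, and Gpc5, a glypican, at 37.9 and 38.5. The contactins Cntn1 and Cntn4 were at 13 and 13.1 and at 11.1 and 11. The largest ratio, 0.74, was that of Ntng1, a netrin-G, at 0.561 and 1.00.

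**Figure D5:**
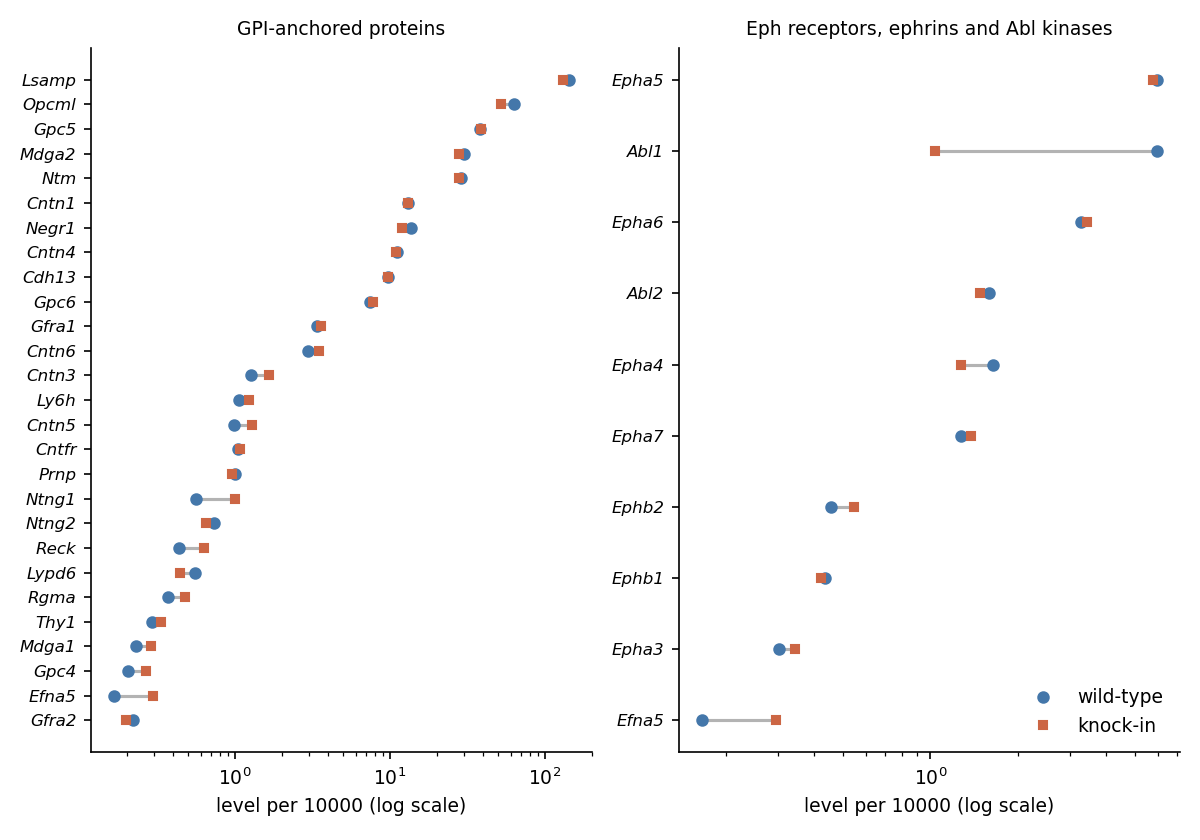
Levels per 10000 (x axis, log scale) of genes at list level in wild-type (circles) and knock-in members (squares), for GPI-anchored proteins (left) and for Eph receptors, ephrins and Abl kinases (right). Efna5 belongs to both lists. Abl1 has the longest line, from 5.95 to 1.04.

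The enzymes that build and attach the anchor were low in both libraries. Of 28 in the table, 12 were at list level, with a median log2 ratio of -0.03. Only 1 of them, Pigk, had the level needed for the size rule, and it did not pass. Pigk, the catalytic subunit of the transamidase that attaches the anchor, was at 1.54 and 1.52 per 10000 in members, and Pgap1, which remodels the anchor, at 0.522 and 0.508. Single values of the low genes differed more in ratio than those of Pigk, such as Arv1 at 0.264 and 0.176.

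Eph receptors bind ephrins on neighbouring cells and can signal through Abl kinases. Among 24 genes of this group, 10 were at list level in the OPCs, 6 of them could be held to the size rule, and Abl1 alone passed it. Epha5 was at 5.96 and 5.77 per 10000 in members, Epha6 at 3.27 and 3.43, and Epha4 at 1.63 and 1.27. Abl2, the other Abl kinase, was at 1.59 and 1.48. The median log2 ratio of the 10 was 0.01, and it was -0.25 without the members that carried markers of another class. Of the 10 genes, 6 were at least 2-fold lower in members than in other cells of both libraries, Epha6 among them, and 0 were at least 2-fold higher. Over all genes at list level, 5.79% were lower and 6.47% higher by that limit.

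In the other OPC lists the median ratio lay near 0, and 0 genes passed the size rule among those with the level it needs. That level was reached by 22 of the 29 OPC genes outside the rule, 19 of 26 lineage transcription factors, 13 of 21 receptors, 17 of 25 matrix genes, 38 of 48 channel and transmitter receptor genes, 43 of 49 adhesion genes, 9 of 14 commitment genes, 5 of 11 myelin genes, 14 of 26 genes of PDGF and MAP kinase signalling, 5 of 11 Notch genes and 2 of 5 cholesterol genes. Among the genes below it was Sparc, a matrix protein, at 0.0990 and 0.396 per 10000, a log2 ratio of 1.32. Median log2 ratios were 0.10 over the 29 OPC genes outside the rule, 0.02 over 26 lineage transcription factors, 0.08 over 21 receptors, 0.10 over 25 matrix genes, -0.01 over 48 channel and transmitter receptor genes, -0.05 over 49 adhesion genes, 0.00 over 14 commitment genes and -0.04 over 11 myelin genes. In PDGF and MAP kinase signalling the median was -0.04 over 26 genes. There Etv4, an effector of this pathway, was at 1.39 and 1.57 per 10000 in members, and Spry4, its inhibitor, at 1.12 and 1.21. Over 11 Notch genes the median was 0.00, with the coactivator Maml2 at 16.5 and 18.1. Over 5 genes of cholesterol synthesis it was also 0.00.

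Transcripts tied to RNA content and quality did differ in balance. The 9 mitochondrially encoded genes at list level were all higher in knock-in members, with a median log2 ratio of 0.57, and their median share per member was 0.223% and 0.378%. Of 53 cytosolic ribosomal protein genes, 51 had a ratio above 0, with a median of 0.59, and their summed level was 15.1 per 10000 and 25.9. The nuclear RNA Malat1 was at 110 and 155. In the 4 reference classes with 50 or more cells per library, too, the knock-in cells had the higher median mitochondrial share. These values stand beside the smaller ratios above, and their part in those was not tested.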

How the data were processed

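Single-cell RNA was measured in 1 library per genotype, each pooled from 4 mice. The authors deposited 1 table of 30223 genes by 15930 cells, treated here as a score: per the name of the deposited table its values come from a depth-correcting normalisation, and they are whole numbers. Seurat 3.0.0 and the build GRCm38 are listed in the submitters' processing notes. The aligner, the filters on cells and any removal of doublets are not given in the sources used here.

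Columns were assigned to libraries by the prefix of their names. Members were found by the marker rule, no cell was removed in the main setting, and no doublet caller or clustering was run; members with markers of another class were counted instead. Levels, log2 ratios (0.1 added), the size rule and exact 95% intervals are as defined in the text, and no count model or test was used. Named genes are the 7 rule markers, Pigv, genes of 30 fixed lists with at least 1 per 10000 (at most 6 per list, plus any past the size rule), up to 10 genes per direction past the size rule, the 25 genes with the largest lower ratio over other cells, defining genes of other classes at any level, and GPI-related genes of at least 0.5 per 10000. Other genes named, and some list genes beyond 6 per list, were picked after their values had been seen. Not every gene that this rule takes in is reported here. The members and lists were chosen with earlier results of these data known. The size rule was tested on simulated data. Gene positions are from GENCODE for GRCm38 and promoter windows from RefSeq (GRCm38.p6). Scripts ran under Python 3.11.15 with pandas 2.3.3 for tables, scipy 1.17.1 for intervals, numpy 2.4.6 and, for figures, matplotlib 3.10.9.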

Additional observations from a re-analysis of the deposited data

How the results depend on the processing

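Of 107 recomputed main values, 95 kept within their limits under the alternatives tried. For shares the limit was the counting error of the difference. It was 0.524 points for OPCs, 2.86 for cycling and 9.13 for commitment-gene members. The differences were smaller, at 0.501, 0.197 and 2.27 points, so a difference could vanish within its limit. The filter on detected genes and mitochondrial share removed no member, so values over members could not change under it. A value could change sign within its limit. The difference in the share of commitment-gene members, 2.27 points, became -1.29 with 1 gene fewer needed. The alternatives covered the number and height of markers, the Gad1 and Gad2 limit, a filter on cells, and members with markers of another class. They also covered low values, the weight of cells, thinning, the pseudocount and the minimum level. The count of lower genes, 1, became 2 with values of 1 set to 0 or a pseudocount of 0.01, 15 after thinning to 1000, and 6 with no minimum level. The count of higher genes, 7, became 19 after thinning, 2 with a pseudocount of 1, 13 at a minimum level of 0.5 and 31 with no minimum level. The median log2 ratio of all genes became 0.044 with no minimum level. The median of the Eph and Abl list, 0.01, became 0.19 with markers at 1 or more, -0.25 without members carrying markers of another class and -0.21 after thinning. Thinning leaves fewer values per gene and the lower level limits admit more genes. The cause of the moves was not tested.

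Abl1 (log2 ratio -2.62 to -1.77), Hdc (2.22 to 5.67) and Gm14216 (2.13 to 6.03) passed the size rule under all 12 alternatives. Gm17660 missed it with a pseudocount of 1 (0.70). Rab40b missed it under 2 alternatives, Tmsb4x under 2, Ptbp3 and Ptgds under 5 each. Cst3 passed under 3 and St18 under 2. No paired analysis was possible because each genotype is 1 library. The design has no replicates, depth is unknown, and variation between mice could not be measured.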

Other observations

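Of the 8 genes past the size rule in members, 4 (Ptgds, Abl1, Hdc and Gm14216) lie on chromosome 2, which holds 182 of the 1986 compared genes with a matched position (9.16%). Ptbp3 lies on chromosome 4, as does Pigv, Gm17660 on chromosome 5, Rab40b on chromosome 11 and Tmsb4x on chromosome X. This was noticed after the genes had been seen, and no test was run.

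Among the members with at least 4 neuron markers, 14 wild-type and 47 knock-in cells, Pdgfra was at 5.91 and 5.0 per 10000 and Lhfpl3 at 54.1 and 44.8, against 6.15 and 7.19 and 62.1 and 62.6 in members without markers of another class. Their median number of genes above 0 was 2405 and 2913, against 2477.5 and 2712.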
